A study of Gallus gallus with 2 samples.

Results

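The nuclei described here carried transcripts of cell division together with transcripts of the double positive (DP) stage of T cell development, in which a thymocyte bears both the CD4 and the CD8 co-receptor. They were chosen by measured counts: at least 200 detected genes, at least 2 unique molecular identifiers (UMIs, each standing for 1 captured transcript) summed over the 6 mitotic genes ASPM, CENPF, NUSAP1, TPX2, KIF11 and INCENP, at least 1 UMI summed over DNTT, CD4 and CD8A, and no UMI of SOX13 or CACNA1C, which mark gamma delta-like thymocytes here. The rule found 811 of the 10745 nuclei with enough genes, out of 12614 barcodes in all. Replicate 1 held 407 of 5171, or 7.87% (exact 95% binomial interval 7.15 to 8.64%), and replicate 2 held 404 of 5574, or 7.25% (6.58 to 7.96%), a mean of 7.56% ± 0.440 (SD, n = 2 libraries). Intervals cover counting error only.

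The series is a census of cell types in chicken immune organs, and the data used here are 2 single-nucleus libraries of thymus from female chickens (Gallus gallus) at 5 weeks of age. The tissue was flash frozen and its nuclei were isolated by machine before droplet capture, so the counts are of nuclear RNA. No treatment, strain or genotype differs between the libraries, and the labels do not say whether they came from separate birds, so every p-value below measures only how alike a difference was in these 2 libraries, a spread that may be technical. Replicate 1 held 4826743 UMIs and replicate 2 held 6570941.

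In the thymus, precursors that have rearranged a T cell receptor beta chain divide and become DP cells, which then leave the cell cycle, rearrange the alpha chain and are selected on their receptor. The RAG1 and RAG2 recombinase cuts receptor gene segments, and DNTT, a template-independent DNA polymerase, adds bases at the joints. In dividing mammalian lymphocytes RAG2 protein is destroyed as cells enter S phase, which keeps DNA cutting apart from replication. Mitosis itself is run by cyclin-dependent kinase 1 with its A and B cyclins, by kinesin motors that build the spindle, by kinetochores that tie chromosomes to it, and by the anaphase-promoting complex, which ends the process.

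Members were set against 3 other groups, formed within each library. Non-mitotic DP-marked nuclei met the DP part of the rule, including the absence of SOX13 and CACNA1C, and had no UMI of the 6 mitotic genes (1455 and 2235 nuclei in replicates 1 and 2). Other mitotic nuclei had at least 2 mitotic UMIs and failed the DP part (670 and 572). The 2639 and 2363 remaining nuclei included 143 and 160 DP-marked nuclei with exactly 1 mitotic UMI, just outside the threshold. Members were deeper than non-mitotic DP-marked nuclei, with a median of 1061 and 1579 UMIs per nucleus against 564 and 704, and close to the other mitotic nuclei at 992 and 1485. Among members, 18.7% and 16.8% were in the 6% of each library with the highest doublet scores, against 5.70% and 4.88% of non-mitotic DP-marked nuclei and 7.31% and 14.3% of other mitotic nuclei. Without those nuclei 667 members remained, 6.61% ± 0.281 of nuclei. The libraries shared 13 barcode sequences, of which 1 belonged to a member.

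The genes used by the rule are given as a description, since they chose the nuclei. On the chicken assembly GRCg7b, ASPM, a spindle pole protein, lies at chr8:2611475-2643322, and CENPF, a kinetochore protein, at chr3:20706976-20741620. NUSAP1, which binds spindle microtubules, lies at chr5:24091705-24105403, and TPX2, the activator of Aurora A kinase, at chr20:10376620-10390133. The spindle motor KIF11 lies at chr6:21517954-21544232, and INCENP, the scaffold of the chromosomal passenger complex, at chr5:16641309-16665102. ASPM was detected most widely, in 76.2% of members of replicate 1 and 74.3% of replicate 2, followed by CENPF in 65.8% and 66.6%. KIF11 was seen in 39.1% and 48.5%. Nuclei of at least 500 UMIs were also thinned to 500, and shallower nuclei were left out. Left out were 17 and 1 members and 575 and 514 non-mitotic DP-marked nuclei of replicates 1 and 2, among others. ASPM was then detected in 56.9% and 51.1% of members against 0% and 3.39% of nuclei with epithelial marker UMIs. The latter are a guide only to free RNA left in the deposited counts, which are named as filtered by CellBender, a tool that removes background counts.

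Members varied widely in their mitotic UMIs. The median was 5 in replicate 1 and 6.5 in replicate 2, and the highest counts were 74 and 54. Members at the threshold, with exactly 2 mitotic UMIs, numbered 173 (21.3%), against 303 DP-marked nuclei with 1, and 240 members (29.6%) had 11 or more. All 6 mitotic genes were detected together in 95 members (11.7%), and a single one of them in 121 (14.9%). Raising the threshold to 3 UMIs left 5.94% ± 0.184 of nuclei, and lowering it to 1 gave 10.4% ± 0.366.

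**Figure D1:**
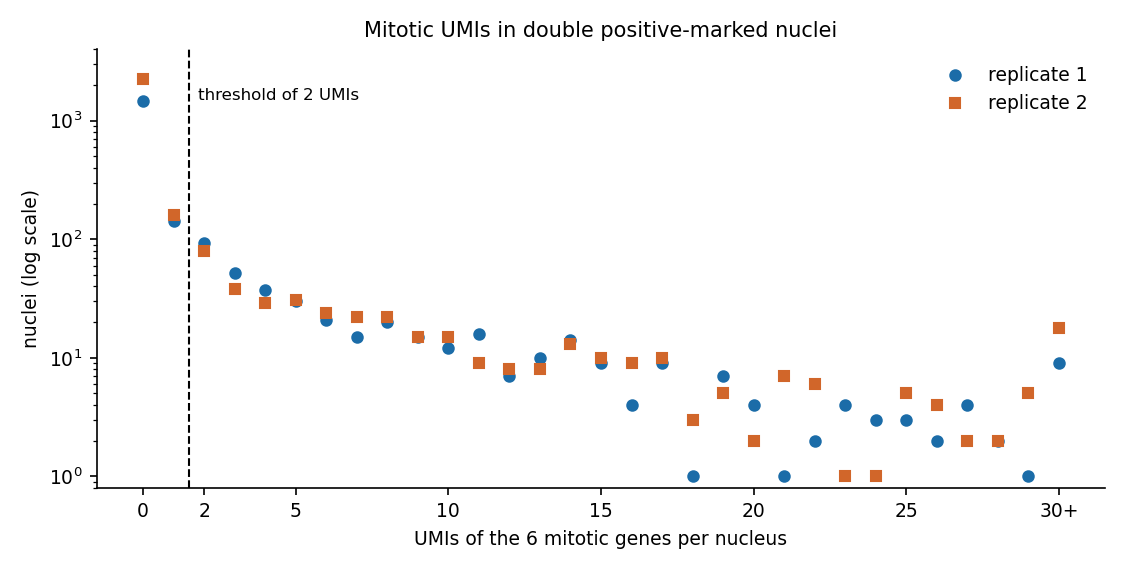
Number of DP-marked nuclei (vertical axis, log scale) at each summed UMI count of the 6 mitotic genes (horizontal axis, 30 or more pooled), in replicate 1 (circles) and replicate 2 (squares). Counts fall from 1455 and 2235 nuclei at 0 UMIs to 93 and 80 at the threshold of 2, with no gap at the threshold and a tail reaching 9 and 18 nuclei at 30 or more.

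The DP label rested most often on DNTT. DNTT alone met that part of the rule in 314 members (38.7%), CD8A alone in 158 (19.5%) and CD4 alone in 71 (8.75%). CD4 and CD8A were both detected in 71 members (8.75%), against 450 of 3690 (12.2%) non-mitotic DP-marked nuclei. RAG1 or RAG2, which the rule did not use, had a UMI in 222 members (27.4%) and in 1310 (35.5%) of the non-mitotic DP-marked nuclei. Both co-receptors were thus seen together in a minority of members, so the nuclei are called DP-like by their rule only. Counting CD4 and CD8A without DNTT left 4.62% ± 0.110 of nuclei.

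The summed levels of the 3 DP genes were each lower in members than in non-mitotic DP-marked nuclei, in counts per 1000000 of a group's summed UMIs (CPM). DNTT was at 3199 and 2713 CPM in members of replicates 1 and 2, against 5563 and 5260. CD4, at chr1:77157345-77168880, was at 349 and 336 CPM against 1004 and 987. CD8A was at 401 and 402 CPM against 600 and 520. The groups did not overlap for any of the 3 genes, though the rule fixed these genes in both groups and no test was made. After thinning to 500 UMIs, DNTT was detected in 62.1% and 53.4% of members and in 72.2% and 68.3% of non-mitotic DP-marked nuclei, against 1.04% and 0.847% of nuclei with epithelial marker UMIs. CD4 was then detected in 13.8% and 14.9% of members against 29.8% and 37.2%, and CD8A in 19.7% and 18.6% against 23.8% and 23.8%. Without thinning the CD8A shares ran the other way, at 39.3% and 47.5% of members against 31.7% and 34.3% of the shallower non-mitotic DP-marked nuclei. The rule asks for 1 UMI whatever the depth, so levels of these 3 genes depend on the depth of each group.

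Markers of other cell types differed by list. All 9 epithelial markers measured, FOXN1 and TP63 among them, were at 0 UMIs in both libraries, while their summed level was 31.5 and 109 CPM in other mitotic nuclei and 517 and 563 CPM in the remaining nuclei. B cell markers, 6 measured, summed to 35.5 and 83.7 CPM in members against 59.7 and 95.2 CPM in non-mitotic DP-marked and 259 and 300 CPM in other mitotic nuclei, and JCHAIN was at 0 in members. Of 9 macrophage markers, CSF1R, C1QC, MRC1, SLC40A1 and TIMD4 were at 0 in members of both libraries, and the sum was 7.09 and 10.6 CPM, against 14.4 and 5.29 CPM in non-mitotic DP-marked nuclei. These lists were lower in members than in other mitotic nuclei in both libraries. Dendritic cell markers, 7 measured with SMOC2 at 0, summed to 287 and 263 CPM in members, against 354 and 324 CPM in non-mitotic DP-marked nuclei. In members of replicate 1, FLT3, PAPPA, CD74 and CADM1 were at 0 as well, so the sum there came from XCR1 and ZBTB46 alone. Endothelial markers, 10 measured with CDH5, KDR, VWF and EMCN at 0, summed to 747 and 676 CPM in members, against 690 and 602 CPM in non-mitotic DP-marked and 725 and 712 CPM in other mitotic nuclei. The endothelial sum was thus higher than in non-mitotic DP-marked nuclei of the same library, and it was 715 and 652 CPM in the remaining nuclei. The endothelial and dendritic sums rest on the listed genes that were not at 0, so they do not measure the content of those cell types. The same genes enter the count of marker UMIs given below. Thrombocyte and granulocyte markers, 6 measured with ITGB3, GP9 and LYZ at 0, summed to 7.09 and 10.6 CPM against 1.03 and 0 CPM in non-mitotic DP-marked nuclei. Erythroid markers summed to 1.77 and 10.6 CPM against 28.8 and 65.0 CPM, and mesenchymal markers to 0 and 2.66 CPM against 12.3 and 12.7 CPM. At least 2 UMIs of these markers were held by 34.4% and 45.5% of members, 18.4% and 22.6% of non-mitotic DP-marked nuclei and 31.2% and 47.4% of other mitotic nuclei, shares that also move with the depth per nucleus. Their part in the results below was not tested, beyond the fits without such nuclei. The levels of each list are sums over a group's nuclei. The number of nuclei holding a list's markers and the UMIs per such nucleus are not given apart.

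Members were first compared with non-mitotic DP-marked nuclei, which met the same DP part of the rule with no UMI of the 6 mitotic genes. This group was not free of other mitotic transcripts, and held 61 and 66 UMIs of CENPE. The DP mark also differed in its make-up. CD4 alone met it in 15.6% of this group against 8.75% of members, and CD8A alone in 10.8% against 19.5%. Whether the 2 groups are the same kind of cell apart from division was not tested. The 11 rule genes were left out, and other genes were tested on UMIs summed per library and group with edgeR's quasi-likelihood test, with the library as a block and an adjusted p of 0.05 as the threshold. Of 9880 genes tested, 1390 (14.1%) were called, 843 higher in members (8.53%) and 547 lower (5.54%), and the median log2 fold change of all genes was -0.03. Genes that vary with the mitotic rule genes in the same nuclei had to be higher in this contrast, so the calls in the lists of mitotic genes describe the size of the difference and are not independent evidence that members were dividing.

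The machinery of mitosis was higher as a block. All 16 tested mitotic kinases and cyclins were called higher (median log2 fold change 4.34, or 4.30 with genes at 0 set to their bound), as were 15 of 17 kinesins and spindle proteins (4.27), 28 of 30 centromere and kinetochore genes (3.27) and 11 of 13 cytokinesis genes (4.21), and the other genes of these 4 lists were not called. BUB1B, a kinase of the spindle checkpoint, was at 624 and 497 CPM in members and at 15.4 and 10.1 CPM in non-mitotic DP-marked nuclei, a log2 fold change of 5.50 ± 0.16 (SE, adjusted p = 2.23e-08). Both libraries placed BUB1B far apart in the 2 groups.

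CENPE, the kinetochore motor, was at 943 and 948 CPM against 62.8 and 34.9 CPM (log2 fold change 4.37 ± 0.17, adjusted p = 3.59e-07). CCNB1, the cyclin whose destruction ends mitosis, was at 273 and 239 CPM against 29.9 and 27.5 CPM (3.15 ± 0.17, adjusted p = 1.27e-06). ECT2, which sets the site of cell cleavage, was at 284 and 266 CPM against 5.15 and 6.88 CPM (5.43 ± 0.24, adjusted p = 4.44e-07). In all 3 genes the lowest member library stood above the highest of the other group. Here and below, such a gap describes the named gene only, since the share of all genes with a gap is not given. Genes that were not called can show a gap too, as ZAP70 did (adjusted p = 0.826 by edgeR). KNSTRN, a spindle protein, had 17 and 21 UMIs in members and none in 3690 non-mitotic DP-marked nuclei, so it was at least 27.5-fold higher, with the floor of 3 counts taken over the group. FAM64A had 15 and 10 UMIs in members and none in the other group, at least 18.1-fold higher.

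Genes of the same complexes did not all move. In the list of spindle checkpoint and anaphase-promoting complex genes, 8 of 19 were called higher (median 0.74). The regulators BUB1B, FBXO5 and CDC20 were among them, with CDC20, the activator of the complex, at 112 and 135 CPM against 7.20 and 1.59 CPM (log2 fold change 5.07 ± 0.46, adjusted p = 4.96e-05). Most core subunits were not called. ANAPC1, for example, was at 131 and 122 CPM against 91.6 and 93.1 CPM (0.46 ± 0.18, adjusted p = 0.124), and among the core subunits tested ANAPC10 was called (1.05 ± 0.14, adjusted p = 0.00065).

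The chromosome structure genes were also split. Of 19 chromosome structure genes, 12 were called higher and 1 lower (median 2.19). TOP2A, the topoisomerase of dividing cells, was at 550 and 558 CPM against 35.0 and 18.5 CPM (log2 fold change 4.48 ± 0.20, adjusted p = 4.48e-07). Its relative TOP2B was lower (-0.54 ± 0.15, adjusted p = 0.0374), a call lost without the library block. The condensin subunits NCAPG2, NCAPG and NCAPD2 were called higher, with log2 fold changes of 4.67, 3.22 and 2.89. The condensin subunit SMC2 differed by 4.03 ± 0.17 on the log2 scale (adjusted p = 4.44e-07). Its partner SMC4 was at 1935 and 1897 CPM in members and already at 1816 and 1691 CPM in non-mitotic DP-marked nuclei, which was not called (0.14 ± 0.07, adjusted p = 0.275), while the other mitotic nuclei had 1461 and 1606 CPM and the remaining nuclei 624 and 595 CPM.

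**Figure D2:**
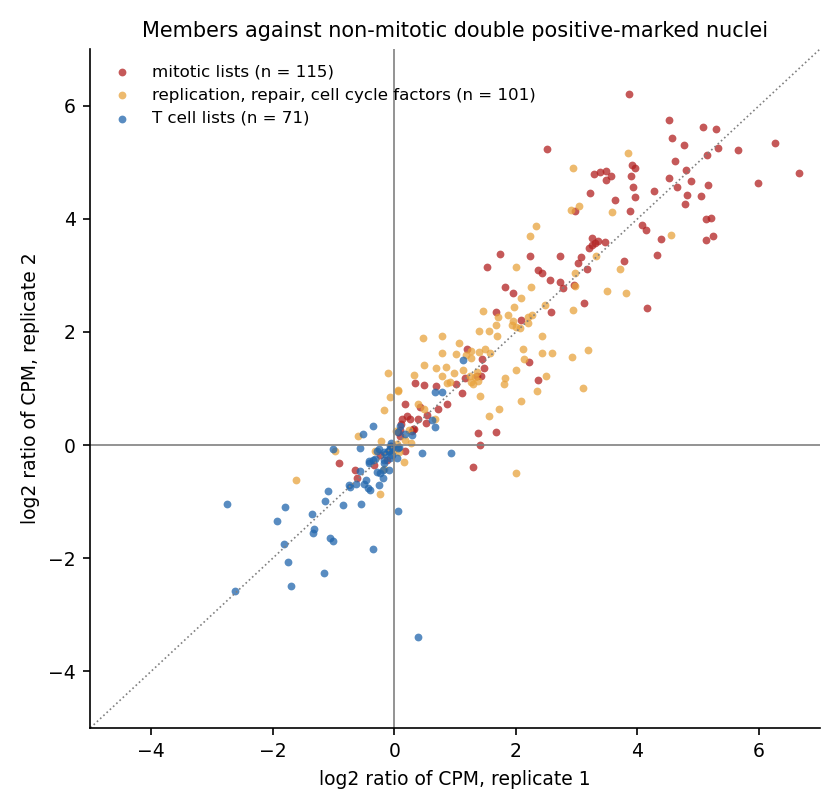
Log2 ratio of CPM, members over non-mitotic DP-marked nuclei, in replicate 1 (horizontal) and replicate 2 (vertical), for tested genes of the mitotic lists (115 drawn), of the replication, repair and cell cycle factor lists (101) and of 4 T cell lists (71), leaving out genes with a group at 0 UMIs. The ratio was above 0 in both libraries for 106 of 115, 87 of 101 and 9 of 71 genes and below 0 in both for 7, 6 and 52. Over all tested genes the median log2 fold change was -0.03, and the share on each side of 0 is not given. Genes that vary with the mitotic rule genes had to be higher here. The dotted line marks equal ratios.

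Part of the genes of S phase were higher as well. Whether members were in S phase or past it was not tested. Of 56 DNA replication genes, 28 were called higher (median log2 fold change 1.39), with 19 of 28 genes of homologous recombination and the Fanconi pathway (1.72) and 12 of 20 cell cycle transcription factors (1.74). The other genes of these 3 lists were not called. With nuclei of at least 1000 UMIs alone, 12 of 54 DNA replication genes were called higher, and with nuclei thinned to 500 UMIs, 21 of 46. POLA1, the catalytic subunit of the primase-polymerase that starts each new strand, was at 855 and 993 CPM against 220 and 217 CPM (log2 fold change 2.09 ± 0.10, adjusted p = 5.23e-07). BRCA1, which acts in homologous recombination, was at 674 and 656 CPM against 66.9 and 64.5 CPM (3.33 ± 0.14, adjusted p = 4.44e-07). FOXM1, the transcription factor of late cell cycle genes, was at 227 and 216 CPM against 18.5 and 12.2 CPM (3.91 ± 0.22, adjusted p = 1.49e-06).

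Proteins that package DNA and line the nucleus differed too. Of 20 chromatin proteins of dividing cells, 12 were called higher and 1 lower (median 1.34), and 6 of 18 nuclear envelope genes were called higher (0.33). EZH2, the methyltransferase of Polycomb repression, was at 793 and 844 CPM against 94.7 and 166 CPM (log2 fold change 2.60 ± 0.20, adjusted p = 1.71e-05). LMNB1, a lamin of the nuclear lining, was at 170 and 155 CPM against 15.4 and 16.4 CPM (3.32 ± 0.25, adjusted p = 1.2e-05). The exception was DNMT3A, a DNA methyltransferase that sets new marks, at 380 and 362 CPM against 604 and 583 CPM (-0.67 ± 0.09, adjusted p = 0.000809).

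Genes of entry into the cell cycle went both ways. In the list of G1 cyclins and cell cycle brakes, 3 of 15 genes were called higher and 5 lower (median -0.17). BTG2, an antiproliferative gene, was at 5.32 and 23.9 CPM in members against 120 and 154 CPM (log2 fold change -3.25 ± 0.45, adjusted p = 0.00085). Its relative BTG1 was at 26.6 and 54.4 CPM against 172 and 222 CPM (-2.33 ± 0.58, adjusted p = 0.0238), a call lost with DESeq2 or without the library block. CDKN1B, the inhibitor p27, was at 163 and 117 CPM against 338 and 309 CPM (-1.21 ± 0.24, adjusted p = 0.00768). In each of the 3 genes both member libraries were below both libraries of the other group.

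The D cyclins, which carry growth signals into the cycle, went opposite ways. CCND3, the D cyclin needed for thymocyte expansion in mice, was at 662 and 686 CPM against 417 and 381 CPM (log2 fold change 0.77 ± 0.09, adjusted p = 0.000291). CCND2 was at 39.0 and 37.2 CPM against 105 and 157 CPM (-1.79 ± 0.22, adjusted p = 0.000397). CDKN2C, the inhibitor p18, was among the genes higher in members, at 63.8 and 105 CPM against 0 and 6.35 CPM (4.50 ± 0.55, adjusted p = 0.00036). A cell cycle inhibitor was therefore among the 3 genes of this list that were higher, beside CCND3 and CDK2.

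Of the V(D)J recombination genes, 1 of 11 was called higher and 1 lower (median -0.14). RAG1 was at 342 and 292 CPM in members and at 877 and 680 CPM in non-mitotic DP-marked nuclei (log2 fold change -1.28 ± 0.14, adjusted p = 0.00014), with no overlap between groups. RAG2 was at 254 and 135 CPM against 243 and 306 CPM (-0.56 ± 0.27, adjusted p = 0.224). Its libraries overlapped, with replicate 1 of the members inside the range of the other group. In nuclei thinned to 500 UMIs, RAG1 was detected in 44 of 390 and 37 of 403 members against 197 of 880 and 345 of 1721 non-mitotic DP-marked nuclei, and in 0 of 96 and 1 of 118 nuclei with at least 3 UMIs of epithelial markers. XRCC4, of the end-joining ligase complex, was at 140 and 163 CPM against 63.8 and 57.6 CPM (1.34 ± 0.22, adjusted p = 0.0022), a call lost in nuclei of at least 1000 UMIs. The other end-joining genes, LIG4, XRCC5, XRCC6, PRKDC, DCLRE1C, NHEJ1, POLL and TP53BP1, were not called.

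**Figure D3:**
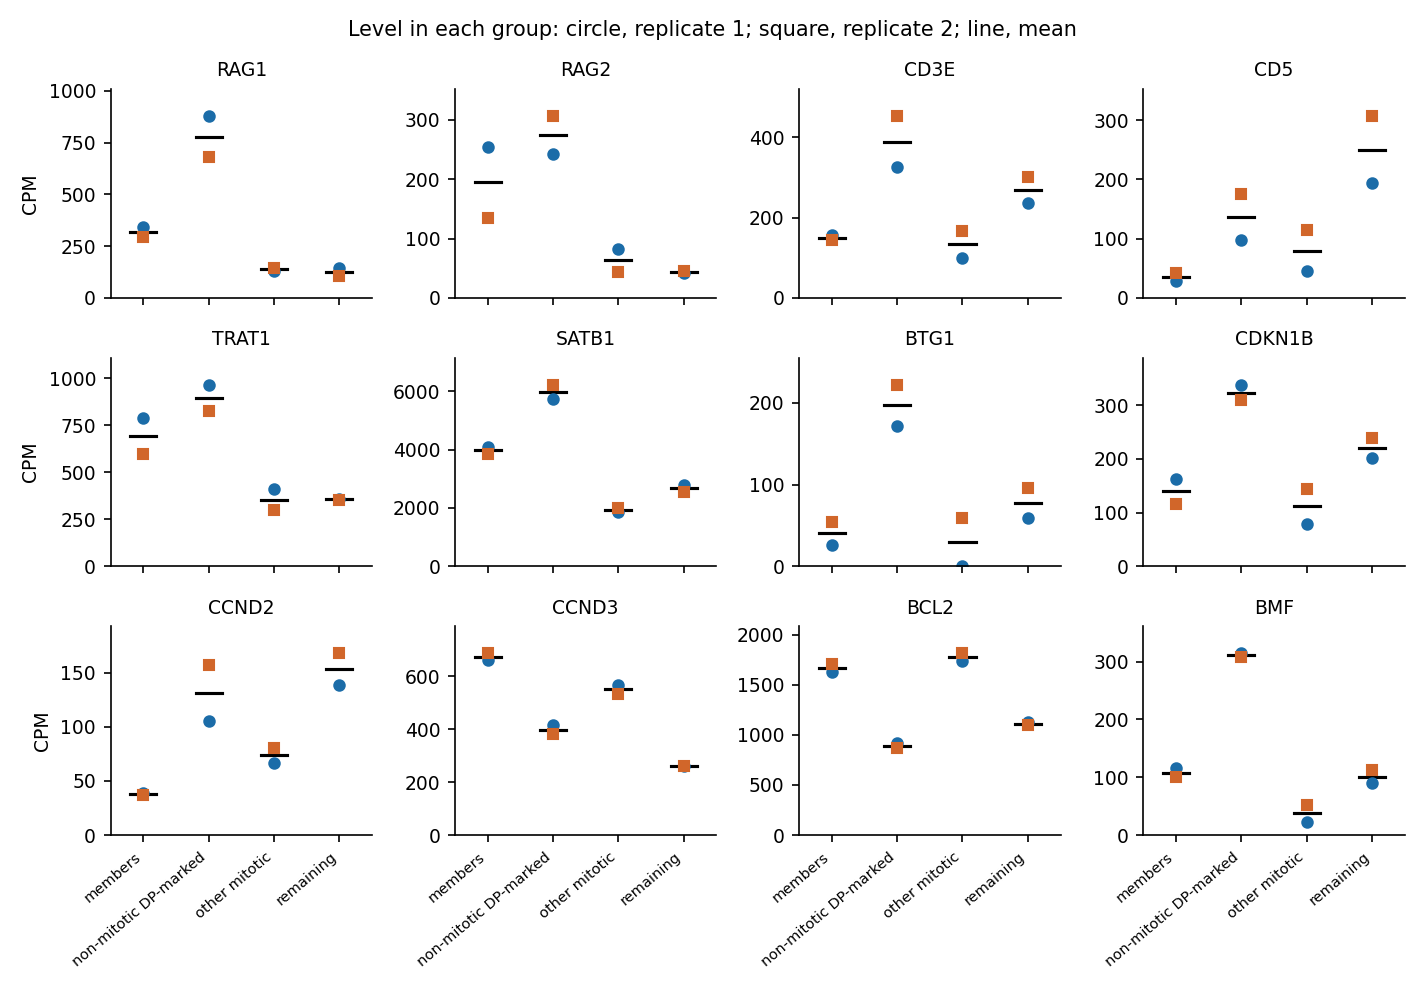
CPM (vertical axis, from 0, its own scale for each gene) of 12 genes in members, non-mitotic DP-marked, other mitotic and remaining nuclei. RAG1, CD3E, CDKN1B and BMF sit lower in both member libraries than in both libraries of non-mitotic DP-marked nuclei, BCL2 and CCND3 sit higher, and RAG2 overlaps.

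The receptor complex and its signalling genes were partly lower. Of 24 genes, 8 were called lower (median -0.44) and the others were not called. CD3E, a signalling chain of the receptor, was at 156 and 145 CPM against 325 and 453 CPM (log2 fold change -1.37 ± 0.17, adjusted p = 0.000447). CD5, which rises with receptor signal in mouse thymocytes, was at 28.4 and 41.2 CPM against 97.8 and 174 CPM (-1.97 ± 0.24, adjusted p = 0.000359), a call lost without the library block. PRKCQ, a kinase downstream of the receptor, was at 293 and 287 CPM against 643 and 567 CPM (-1.05 ± 0.12, adjusted p = 0.000247).

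Other chains and kinases of the same pathway were not called. CD247, the zeta chain, was at 1378 and 1337 CPM against 1444 and 1574 CPM (log2 fold change -0.15 ± 0.08, adjusted p = 0.273), and ZAP70 at 142 and 146 CPM against 150 and 156 CPM (-0.08 ± 0.17, adjusted p = 0.826). THEMIS, needed for positive selection in mice, was at 1135 and 1288 CPM against 1262 and 1438 CPM (-0.15 ± 0.08, adjusted p = 0.262). A p above the threshold does not show that these levels were equal. TRAT1, an adaptor of the receptor complex, was called lower (-0.37 ± 0.11, adjusted p = 0.0438), but in nuclei of at least 1000 UMIs its log2 fold change was 0.06.

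Of 16 genes of selection and of mature T cells, 7 were called lower, 1 was called higher and 8 were not called (median -1.53). KLF2, the factor that prepares T cells to leave the thymus in mice, had 0 UMIs in members against 8 and 15 in non-mitotic DP-marked nuclei, at least 3.5-fold lower with the floor of 3 counts over the group. CCR7, which guides cells to the medulla, was at 8.87 and 11.9 CPM against 34.0 and 42.3 CPM (log2 fold change -1.85 ± 0.34, adjusted p = 0.00492), and TNFAIP3, a brake on NF-kappaB, at 70.9 and 61.1 CPM against 178 and 173 CPM (-1.41 ± 0.20, adjusted p = 0.000859). The KLF2 call was lost with thinning to 500 UMIs, without the highest doublet scores and without nuclei holding other cell types' markers, and the CCR7 call with thinning. The gene called higher was S1PR1, the egress receptor (0.83 ± 0.24, adjusted p = 0.0449), whose log2 fold change was -0.30 in nuclei of at least 1000 UMIs.

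Among 28 T lineage transcription factors, 2 were called higher and 7 lower (median -0.23). SATB1, a chromatin organiser, was at 4086 and 3860 CPM against 5744 and 6212 CPM (log2 fold change -0.58 ± 0.06, adjusted p = 0.000173). ID3, an inhibitor of E proteins that receptor signals induce, was at 3.55 and 14.6 CPM against 26.8 and 91.5 CPM (-2.61 ± 0.49, adjusted p = 0.00533), a call lost without the library block. BCL11B, the T lineage commitment factor, was called higher by 0.24 ± 0.04 (adjusted p = 0.00421), but the sign turned in nuclei of at least 1000 UMIs, where the log2 fold change was -0.14. TCF12, the other gene called higher, lost its call in 7 of the 12 alternatives.

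Apoptosis genes moved both ways, with 3 of 16 called higher and 3 lower (median -0.48). BCL2, which blocks the mitochondrial route to death, was at 1626 and 1706 CPM against 917 and 869 CPM (log2 fold change 0.91 ± 0.07, adjusted p = 1.21e-05). BMF, which opposes BCL2, was at 115 and 99.6 CPM against 314 and 307 CPM (-1.53 ± 0.24, adjusted p = 0.00188). MCL1, another blocker, was at 37.2 and 23.9 CPM against 62.8 and 84.6 CPM (-1.32 ± 0.31, adjusted p = 0.0163). BCL2L1, which keeps mouse DP cells alive, was at 211 and 165 CPM against 207 and 239 CPM and was not called (-0.26 ± 0.17, adjusted p = 0.399). CASP8, a cell death protease, was also called higher, and its call was lost in nuclei of at least 1000 UMIs.

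The lists of early double negative and gamma delta-like genes had 1 of 14 and 3 of 8 genes called in this contrast, beside 14.1% of all genes tested. Of 14 early genes, HMGA2 alone was called, higher by 1.03 ± 0.24 on the log2 scale (adjusted p = 0.0186), and of 8 gamma delta-like genes TARP was called higher and SOX4 and MAF lower. TARP, the transcript annotated at the T cell receptor gamma locus, was at 337 and 449 CPM in members against 213 and 220 CPM (0.88 ± 0.12, adjusted p = 0.00065), and at 810 and 918 CPM in the other mitotic nuclei.

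**Figure D4:**
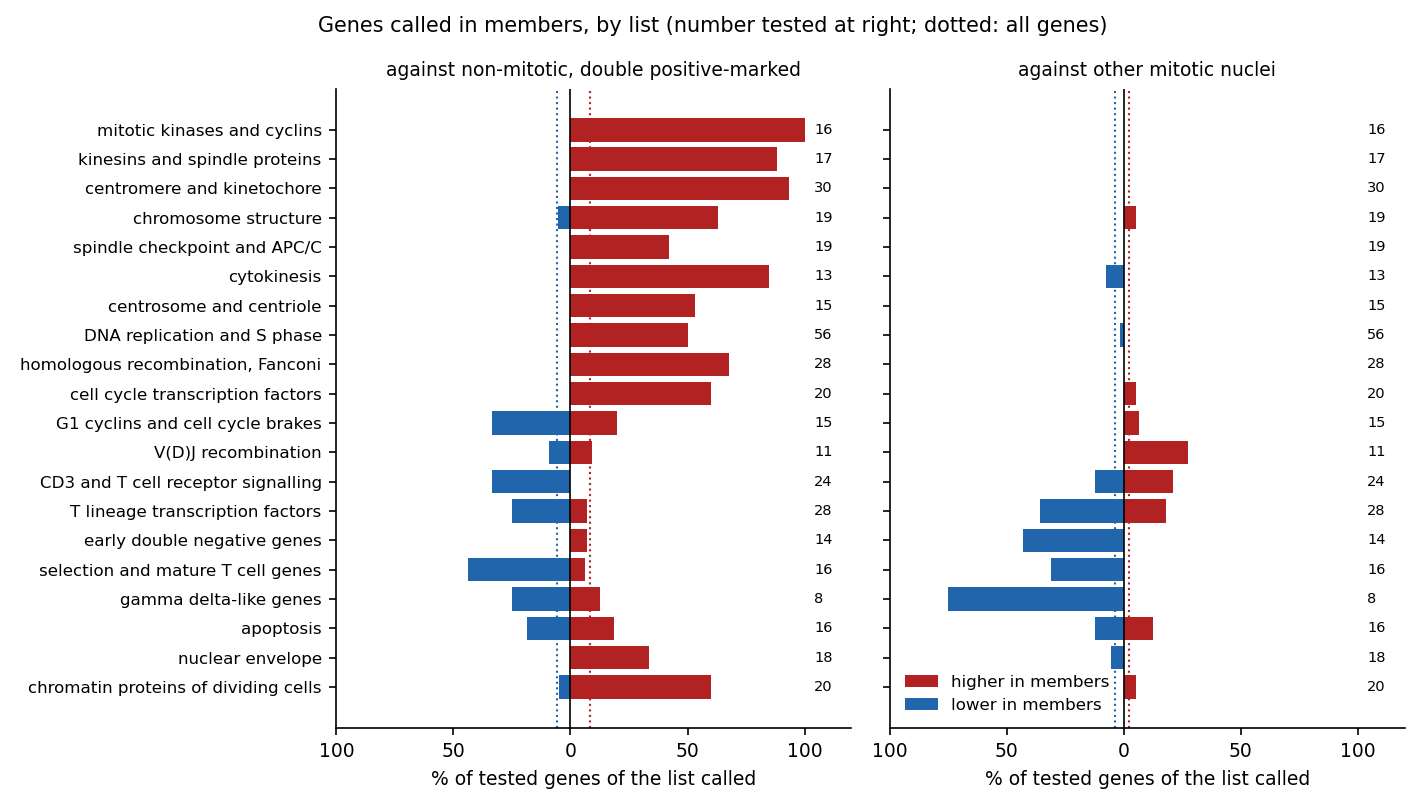
Share of the tested genes of each list (bars, number tested at the right) called higher (to the right) or lower (to the left) in members at an adjusted p of 0.05, against non-mitotic DP-marked nuclei (left panel) and other mitotic nuclei (right panel), with dotted lines at the share of all genes called. Mitotic lists fill the left panel at up to 16 of 16 genes and are nearly empty in the right panel, where most of the called genes lie in the T cell lists.

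The second comparison set members against nuclei that met the mitotic part of the rule and failed the rest of it. Some of the latter carried DP genes with SOX13 or CACNA1C, since DNTT was detected in 34 and 66 of them and CD8A in 12 and 45. Mitotic levels were not equal either, and in replicate 2 ASPM was at 1771 CPM in members and 1362 CPM in other mitotic nuclei. Against other mitotic nuclei, 596 of 9880 genes were called (6.03%), 222 higher in members (2.25%) and 374 lower (3.79%), with a median log2 fold change of -0.04 over all genes. Of the cell division lists, chromosome structure and cell cycle transcription factors each had 1 gene called higher, and cytokinesis and DNA replication each had 1 called lower. The other 6 (mitotic kinases and cyclins, kinesins, kinetochore, checkpoint, centrosome and homologous recombination) are grouped here because edgeR called 0 of their 125 entries. DESeq2 called 0 of them, and 1 had an unadjusted p under 0.05. Both groups were chosen on the same 6 mitotic genes, so their likeness in these lists follows in part from the rule. CENPE was at 943 and 948 CPM in members and at 1062 and 911 CPM in other mitotic nuclei, and the log2 fold change was 0.01 ± 0.13. BUB1B was at 624 and 497 CPM against 579 and 442 CPM (0.20 ± 0.10, adjusted p = 0.408). In both genes the libraries of the 2 groups overlapped.

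The 4 DP markers outside the rule, RAG1, RAG2, TRAT1 and THEMIS, were all called higher in members. Genes that vary with DNTT, CD4 and CD8A in the same nuclei had to be higher in this contrast. The calls of DP genes therefore describe the size of the difference and are not independent evidence that members were DP cells. RAG1 was at 342 and 292 CPM in members against 131 and 146 CPM (log2 fold change 1.23 ± 0.16, adjusted p = 0.0012). RAG2 was at 254 and 135 CPM against 82.9 and 43.8 CPM (1.68 ± 0.32, adjusted p = 0.0128), a call lost without the library block and without nuclei holding other cell types' markers. TRAT1 was at 789 and 595 CPM against 410 and 301 CPM (1.03 ± 0.11, adjusted p = 0.000579). Members therefore sat between the other mitotic and the non-mitotic DP-marked nuclei in RAG1, with no overlap on either side.

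T lineage transcription factors split, with 5 of 28 called higher and 10 lower. SATB1 was at 4086 and 3860 CPM in members against 1859 and 1994 CPM (log2 fold change 1.10 ± 0.07, adjusted p = 1.47e-05), and LEF1, a factor of the Wnt pathway, at 7657 and 7261 CPM against 5424 and 5288 CPM (0.54 ± 0.04, adjusted p = 0.00011). TOX, needed for the CD4 lineage in mice, was at 252 and 251 CPM against 868 and 736 CPM (-1.60, adjusted p = 1.47e-05). GATA3, a factor of early and CD4 T cells, was at 268 and 259 CPM against 520 and 587 CPM (-1.01, adjusted p = 0.00104).

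Among genes of other thymocyte branches, 6 of 14 early double negative genes and 6 of 8 gamma delta-like genes were called lower in members, with medians of -1.73 and -1.29, although the SOX13 and CACNA1C part of the rule acts on the gamma delta-like list. IL2RA, the interleukin 2 receptor alpha chain of early thymocytes, had 0 UMIs in members against 31.5 and 16.6 CPM. IL7R, the interleukin 7 receptor, was at 31.9 and 46.5 CPM against 124 and 105 CPM (log2 fold change -1.44, adjusted p = 0.0126). TARP was lower as well (log2 fold change -1.07 ± 0.11, adjusted p = 0.000339). BCL2 was not called between the mitotic groups, at 1626 and 1706 CPM against 1734 and 1812 CPM (-0.03 ± 0.07, adjusted p = 0.929), and BCL2L1 was called higher, at 211 and 165 CPM against 99.3 and 92.0 CPM (1.03 ± 0.19, adjusted p = 0.0121).

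Some markers of other cell types were also called lower in this contrast. The genes with the largest fall, DST, TTN, NFIA, ABCA12, ATP10B and GLI3 among them, had 0 UMIs in members, and DST was at 117 and 175 CPM in other mitotic nuclei and at 1069 and 1322 CPM in the remaining nuclei, next to the epithelial marker levels given above. DST was at least 66.0-fold lower in members with the floor of 3 counts over the group. Without nuclei holding at least 2 UMIs of other cell types' markers, 182 genes were called in place of 596, 92 higher and 90 lower. The calls for RAG1, TRAT1, SATB1 and GRAP2 held there, and none of the 6 early double negative calls did by edgeR, with a list median of -0.50. This filter removed 34.4% and 45.5% of members and 31.2% and 47.4% of other mitotic nuclei. The endothelial list gave 421 and 509 of the marker UMIs in members, at 747 and 676 CPM against 725 and 712 CPM in other mitotic nuclei. The part of other cell types in the fall in calls was not tested. The marker lists of this filter hold FLT3 and ERG, which are also in the early double negative list. The filter thus acts on that list directly, and the loss of its calls cannot be assigned to other cell types.

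Against all other nuclei together, 2048 of 10891 genes were called (18.8%), 759 higher in members (6.97%) and 1289 lower (11.8%), with a median log2 fold change of -0.09. This fit has 1 residual degree of freedom over 4 sums, so its spread rests on few values. The higher calls included 13 of 16 mitotic kinases and cyclins and 14 of 17 kinesins and spindle proteins. V(D)J recombination had 3 of 11 genes called higher, while 13 of 16 selection and mature T cell genes and 14 of 24 receptor signalling genes were called lower. Levels of single genes in the remaining nuclei place members: BCL2 was at 1125 and 1095 CPM there, RAG1 at 145 and 107 CPM and KLF2 at 44.3 and 41.4 CPM. Without nuclei holding other cell types' markers 1129 genes were called, 511 higher and 618 lower.

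Within the DP-marked nuclei, levels changed with the number of mitotic UMIs, which is a description since the rule genes define the order. Depth rose along it, from a median of 922 UMIs per nucleus at 2 mitotic UMIs to 2471 above 20, so levels are given in CPM and the part of depth was not tested. The kinesin and spindle list rose at every step past 1 mitotic UMI, from 1913 and 1854 CPM at 2 mitotic UMIs to 6567 and 6726 CPM above 20. ANLN, which anchors the cleavage ring, rose from 64.1 and 49.1 CPM to 357 and 412 CPM.

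The DNA replication list took another course. It stood at 2244 and 2182 CPM in DP-marked nuclei with no mitotic UMI and at 5734 and 6223 CPM in those with 1, just outside the rule. It stayed between 6037 and 6891 CPM from 2 to 10 mitotic UMIs and was at 4962 and 4884 CPM above 20. CDK6, a kinase of G1, was highest at 1 mitotic UMI, at 2092 and 1946 CPM, and was at 832 and 751 CPM above 20. CDK6 was chosen after its values were seen, and its level did not differ between members as a whole and non-mitotic DP-marked nuclei beyond the threshold (log2 fold change 0.08 ± 0.09, adjusted p = 0.624). The replication list thus had a higher CPM at 2 to 10 mitotic UMIs than at 0 or above 20, while the kinesin and spindle list was highest above 20.

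The DP genes were lower in nuclei with mitotic UMIs, without falling at every step. DNTT was at 4402 and 4101 CPM at 2 mitotic UMIs and at 2714 and 2145 CPM above 20. RAG1 was at 877 and 680 CPM with no mitotic UMI and between 234 and 545 CPM in every stratum from 2 upwards, without a steady course. CD4 was at 1004 and 987 CPM with no mitotic UMI, at 380 and 286 CPM with 1, and between 242 and 569 CPM from 2 upwards. In both libraries CD4 was thus lower in DP-marked nuclei with 1 mitotic UMI, just outside the rule, than in those with none. The part of depth in this difference was not tested.

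**Figure D5:**
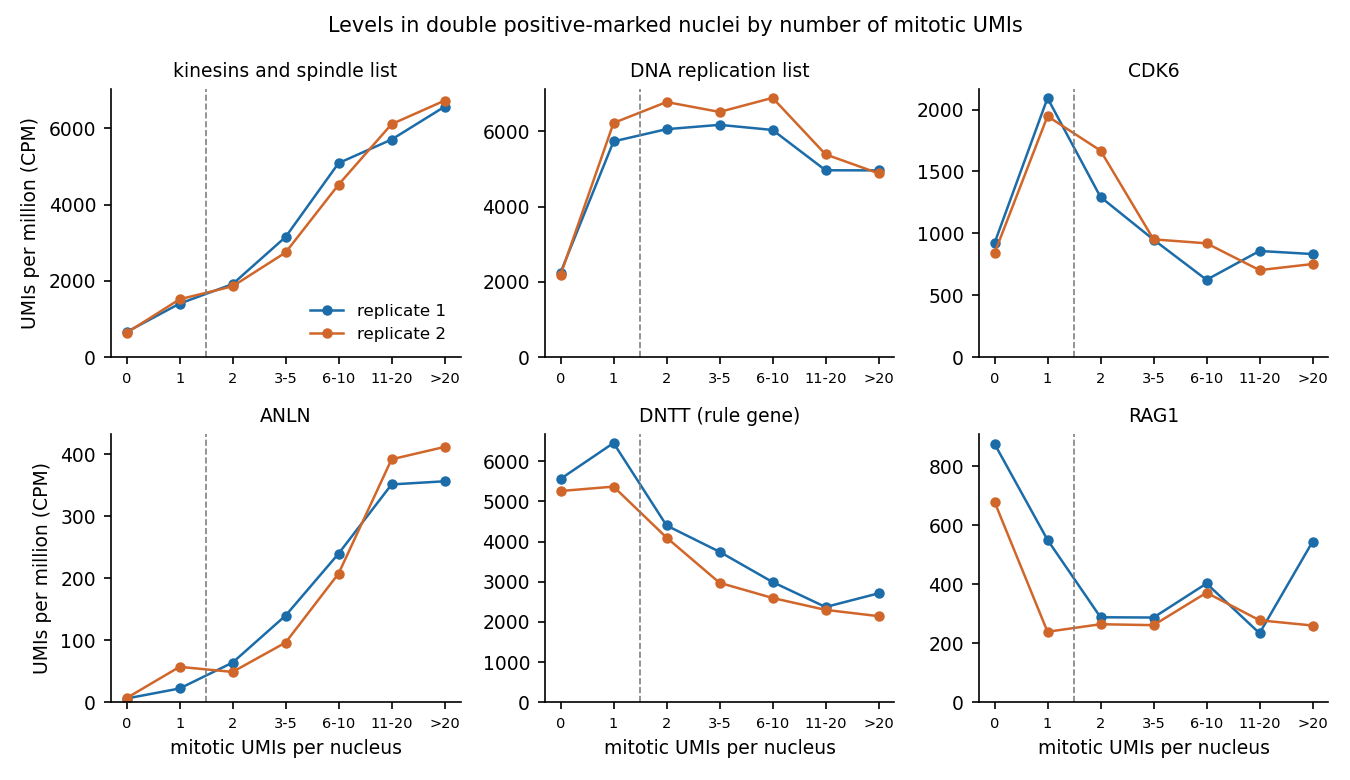
CPM (vertical axes, from 0) of 2 gene lists and 4 genes in DP-marked nuclei grouped by their number of mitotic UMIs (horizontal axis), in replicates 1 and 2, with the threshold of the rule dashed. The kinesin list and ANLN climb to their highest level above 20 UMIs, the replication list and CDK6 are lower there than at 2 UMIs, and DNTT, at 4402 and 4101 CPM at 2 UMIs, is at 2714 and 2145 CPM above 20.

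The libraries differed in how often DP-marked nuclei were mitotic. Thinning to 500 UMIs left out 575 and 514 non-mitotic DP-marked nuclei that were shallower, against 17 and 1 members, so these shares leave out unequal parts of the groups. DP marks and mitotic UMIs were counted again on the thinned counts. Of the nuclei DP-marked in that way, 17.7% (15.7 to 19.9%) in replicate 1 and 9.14% (7.93 to 10.5%) in replicate 2 had at least 2 mitotic UMIs. The exact 95% intervals are over nuclei, which are not replicates, and cover counting error only. Nuclei with neither a DP mark nor SOX13 or CACNA1C gave 20.2% and 15.4%, and those with SOX13 or CACNA1C gave 60 of 307 and 63 of 393 nuclei. With the rule applied again to the thinned counts, 230 and 190 of the nuclei kept met it, or 6.10% and 4.09%. Without thinning, 7.87% and 7.25% of all nuclei met the rule. Members that lost rule UMIs in thinning no longer count in the former shares. With 2 libraries and no group difference between them, these are 2 values with no test. With the groups as formed before thinning, the 390 and 403 members kept carried 2.93 and 3.13 UMIs of the DNA replication list per thinned nucleus. The means were 1.16 and 1.08 in non-mitotic DP-marked nuclei and 3.53 and 3.57 in other mitotic nuclei.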

How the data were processed

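The authors deposited UMI counts per gene and barcode, as whole numbers. Reads were processed with Cell Ranger 7.0.1 and Scanpy 1.9.1 on GRCg7b, per the submitters' processing notes, and the deposited matrices are named as filtered by CellBender, with settings that no source used here gives; its removal of background counts bears on every level near 0. The members and gene lists were chosen with earlier results of these data known.

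UMIs were summed per group and library and tested with edgeR 4.0.16 (quasi-likelihood, TMM scaling, filterByExpr, library as block, R 4.3.3), adjusted by Benjamini-Hochberg across every tested gene, with calls at 0.05. Replicate numbers pair the sums because groups of the same number come from 1 library. Levels are UMIs per 1000000 UMIs of the group (CPM). The comparison with all other nuclei was fitted on 4 sums (1 residual degree of freedom), the others together on 8 sums (3). The 11 rule genes were left out of tests and their library sizes. Each SE beside a log2 fold change was computed from that fold change and the test's F statistic. It is therefore not a measure of spread apart from the test. The fit was also run on simulated counts, in which every gene had the same spread and the groups had no difference in cell mix. That run does not measure how reliable the calls in these libraries are. Genes at 0 in a group get a bound from 3 counts over the group.

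Named genes were at most 5 per list and direction in order of adjusted p, all genes of the recombination, receptor and DP lists, and the 8 largest changes each way among genes of at least 20 UMIs; others named were chosen after their values were seen. Doublets were kept: a score from simulated doublets (2 per nucleus, 15 neighbours, 30 components, 2000 genes) served to drop the top 6% as an alternative. Alternatives included DESeq2 1.42.0, thinning to 500 UMIs and, chosen after seeing the data, total UMIs as the only scaling. Promoter sequences were not used here.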

Additional observations from a re-analysis of the deposited data

How the results depend on the processing

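Against 2048, 1390 and 596 genes called in comparison with all other, non-mitotic DP-marked and other mitotic nuclei, a fit without the replicate block (the library) called 1180, 900 and 284. The library is the block because the groups of 1 library come from the same preparation, and no check of the pairing across libraries was possible. DESeq2 called 1135 against all other nuclei, 49.3% of them higher in place of 37.1%. Thinning to 500 UMIs called 938 against all other and 187 against other mitotic nuclei, the latter 50.3% higher in place of 37.2%. Leaving out nuclei with other cell types' markers called 1129 and 182. Nuclei of at least 1000 UMIs gave 869 against non-mitotic DP-marked nuclei. Without a filter on low counts 902 were called against other mitotic nuclei, and 50.6% in place of 60.6% were higher against non-mitotic DP-marked nuclei. The rule without DNTT called 365 against other mitotic nuclei. The mean share of members, 7.56%, was 10.4% with at least 400 genes, 10.4% with at least 1 mitotic UMI, 5.94% with at least 3, 4.62% without DNTT, 6.61% without the highest doublet scores and 5.10% with the rule applied after thinning. With 1 library left out it was 7.25% to 7.87%. Of the 1390 genes called against non-mitotic DP-marked nuclei, 720 were called in the same direction in nuclei of at least 1000 UMIs and 0 in the opposite one. Signs were compared for the named genes only. Among those called in either fit, 3 log2 fold changes turned sign in these nuclei, to 0.063 for TRAT1, -0.14 for BCL11B and -0.30 for S1PR1. The cause was not tested. Of the named genes that were called, 83 of 116, 7 of 33 and 5 of 16 were called in every alternative against non-mitotic DP-marked, other mitotic and all other nuclei. Leaving out a library leaves no residual degrees of freedom, so no calls were counted there. The number of libraries and the UMIs per nucleus limit what can be seen.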

Other observations

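Some of the clearest differences lay in genes of no list, and the genes below were chosen after their values were seen. Against non-mitotic DP-marked nuclei, FSTL4, a follistatin-like gene, was at 1314 and 1365 CPM in members against 32.9 and 43.4 CPM (log2 fold change 5.09 ± 0.15, adjusted p = 2.23e-08 by edgeR). SMARCA2, an ATPase of chromatin remodelling, was at 958 and 813 CPM against 319 and 314 CPM. Lower in members were SESN3, a sestrin of the stress response, at 117 and 116 CPM against 677 and 647 CPM, and KDM5B, a histone demethylase, at 33.7 and 27.9 CPM against 182 and 186 CPM. CHD7, a chromatin remodeller, was at 358 and 258 CPM against 1261 and 1115 CPM. In these 5 genes, picked on their values, the member libraries did not overlap those of the other group, and the share of all genes without overlap is not given.

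Against other mitotic nuclei, KCNQ1, a potassium channel, was at 206 and 199 CPM in members against 1408 and 1465 CPM. ARPP21, an RNA-binding protein, was at 5311 and 4941 CPM against 2923 and 2768 CPM, and FAM53A at 2901 and 2746 CPM against 1384 and 1265 CPM. Both mitotic groups held FSTL4, at 993 and 801 CPM in the other mitotic nuclei.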
